A study of Mus musculus with 11 samples.

Results

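The 9 genes described here encode enzymes that hepatocytes use to break down aromatic amino acids and methionine: Tat, Tdo2, Hpd, Hgd and Fah for tyrosine and tryptophan, and Mat1a, Gnmt, Ahcy and Bhmt for methionine. They were grouped by pathway, with earlier results of these data known, and all 9 were found among the 54232 gene identifiers of the count files. Counts came from RNA of isolated, Percoll-purified hepatocytes of adult male C57BL/6 mice, sequenced as 11 libraries. The control genotype was Xbp1 fl/fl, in which the Xbp1 gene carries loxP sites and is intact. The other genotype was Xbp1 LKO, in which Cre recombinase driven by the albumin promoter deletes part of Xbp1 in hepatocytes. Both genotypes were fed either chow or the HFS diet (high fat and sugar) for up to 6 weeks. The HFS diet was a Western diet with fructose and glucose in the drinking water. The paper gives a fast before its mice were killed, and its section on cell isolation does not mention one. There were 3 libraries of chow-fed Xbp1 fl/fl mice, 2 of chow-fed Xbp1 LKO mice, and 3 of each genotype on the HFS diet. A chow library held the cells of 1 mouse and an HFS library a pool of the cells of 2 mice, so that pooling and diet cannot be told apart.

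Tyrosine is broken down in the liver in a linear series of steps: tyrosine aminotransferase (Tat) makes 4-hydroxyphenylpyruvate, its dioxygenase (Hpd) makes homogentisate, homogentisate dioxygenase (Hgd) opens the ring, and fumarylacetoacetate hydrolase (Fah) makes fumarate and acetoacetate. Tryptophan dioxygenase (Tdo2) opens the indole ring of tryptophan and so starts the kynurenine pathway. In the methionine cycle, the liver enzyme methionine adenosyltransferase (Mat1a) makes S-adenosylmethionine, glycine N-methyltransferase (Gnmt) spends it, S-adenosylhomocysteine hydrolase (Ahcy) makes homocysteine, and betaine-homocysteine methyltransferase (Bhmt) turns homocysteine back into methionine. Ahcy is made in most cell types, whereas most of the other genes are known mainly from liver, and Tat and Tdo2 are classic targets of glucocorticoids. XBP1 is a transcription factor of the unfolded protein response.

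None of the 9 genes passed the test in any comparison of genotype or diet. On the HFS diet, 8 of the 9 had a negative log2 fold change in Xbp1 LKO hepatocytes, as had 48.6% of all genes. Scaled by library totals, 4 of the 9 were negative, as were 18.2% of all genes. Under both scalings 8 of the 9 lay below the median of all genes. For Ahcy, Hpd, Gnmt and Fah the 3 Xbp1 LKO values were lower than all 3 values of the controls, where 26.1% of all genes did not overlap in either direction. Ahcy came closest to the threshold, at 175 ± 26.9 CPM (SD, n = 3) in HFS-fed Xbp1 LKO hepatocytes against 254 ± 8.47 CPM (SD, n = 3) in HFS-fed Xbp1 fl/fl hepatocytes. CPM, the level used throughout, is a gene's count relative to the total of its library, scaled by edgeR's TMM factors. The test was edgeR's quasi-likelihood test over 13303 genes, with Benjamini-Hochberg adjusted p-values and a threshold of 0.05. Of 32 genes of other amino acid pathways, 8 were lower and 1 was higher in Xbp1 LKO hepatocytes on chow, and 5 and 1 on the HFS diet, among them Hal, Sds and Sdsl of histidine and serine breakdown, against 4.75% and 4.08% of all genes called in either direction. Without replicate 3 of the HFS-fed Xbp1 LKO group the 5 became 1. Those that no longer passed, Hal, Sds, Sdsl and Agxt, had log2 fold changes of -2.16, -2.35, -1.79 and -0.84. Leaving out replicate 2 of the chow-fed Xbp1 LKO group leaves 1 library there, so that no calls of the 8 are given for that fit. The 8 log2 fold changes then lay between -2.50 and -0.88, and between -2.86 and -1.31 with it. The part of a single library and the loss of a library cannot be told apart here.

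The libraries held 19191032 to 23888401 counts. A member gene had 3844 to 119309 counts in a library, so that its counting error was at most 1.61%, below the coefficients of variation within groups of 3.33% to 54.8%. Together the 9 genes took 1.32% to 1.81% of the counts. Xbp1, the targeted gene, had 194 to 221 CPM in chow-fed and 242 to 301 CPM in HFS-fed Xbp1 fl/fl libraries, and 95.7 to 135 CPM in the 5 Xbp1 LKO libraries, so that all 5 lay below all 6 controls. The count is for the whole gene and includes exons that are not deleted. Of 14 hepatocyte markers, 13 were found and tested, and their summed level was 155703 to 190363 CPM in chow-fed Xbp1 fl/fl, 57356 to 94957 CPM in chow-fed Xbp1 LKO, 135995 to 154674 CPM in HFS-fed Xbp1 fl/fl and 75694 to 105930 CPM in HFS-fed Xbp1 LKO libraries. Of these markers 2 were lower in Xbp1 LKO hepatocytes on chow and 1 on the HFS diet, against 4.75% and 4.08% of all genes called. A negative log2 fold change was found for 12 of the 13 on chow and 11 on the HFS diet, with a median of -0.61 on both. Of all genes, 49.7% and 48.6% were negative. Alb, which encodes albumin, had 86732 to 119367 CPM in chow-fed controls against 14021 and 34259 CPM (log2 fold change -2.14, adjusted p = 0.011), and 64343 to 82040 CPM in HFS-fed controls against 29578 to 51478 CPM (log2 fold change -0.86, adjusted p = 0.178). The call on chow was lost without replicate 2 of the Xbp1 LKO group (adjusted p = 0.069). The summed levels of other cell types' markers were far lower, with ranges that differed between groups. In the order just used for the hepatocyte markers, 10 endothelial markers summed to 47.2 to 122, 29.8 to 37.7, 94 to 161 and 77.9 to 130 CPM. In the same order, 10 macrophage markers summed to 17.6 to 76.6, 19.3 to 29.9, 34.9 to 48.9 and 49.9 to 87.2 CPM, and 9 stellate cell markers to 16.6 to 54.7, 11.8 to 14.3, 29.5 to 51.6 and 31.7 to 66.3 CPM. None of the 10, 10 and 8 of these that were tested passed, yet on chow every one had a negative log2 fold change in Xbp1 LKO hepatocytes. The medians were -1.37, -0.51 and -1.24 for endothelial, macrophage and stellate markers. Replicate 1 of the chow-fed controls had the highest sums of its group, 122, 76.6 and 54.7 CPM. The other chow-fed controls had 47.2 and 63.7, 17.6 and 18.4, and 16.6 and 22.2 CPM. The chow-fed Xbp1 LKO libraries had 37.7 and 29.8, 19.3 and 29.9, and 11.8 and 14.3 CPM. Their macrophage sums thus lay above those of the other chow-fed controls. On the HFS diet the 10 endothelial markers were again negative (median -0.38) and the 10 macrophage markers positive (median 0.62), and between diets in Xbp1 LKO mice every one was positive, with medians of 1.62, 1.33 and 2.27. The sums of 5 cholangiocyte markers (3.38 to 16.1 CPM), 7 lymphocyte and neutrophil markers (0.398 to 6.75 CPM) and 2 erythroid genes (at most 0.498 CPM) were lower still, and 1 cholangiocyte marker was lower in Xbp1 LKO hepatocytes on chow. None of the markers found was at 0 in every library, and their part in the differences between groups was not tested. In such RNA, fewer cells of a type and less RNA per cell cannot be told apart.

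Between genes, levels were compared as CPM per kilobase of the union of a gene's exons. In chow-fed Xbp1 fl/fl hepatocytes, Gnmt led with 2030 ± 538 CPM per kilobase (SD, n = 3). Mat1a (1361 ± 265), Hpd (1280 ± 227), Tat (872 ± 222) and Tdo2 (610 ± 115 CPM per kilobase) followed, and each of these overlapped its neighbour in the order. Fah (412 ± 62.4) and Hgd (331 ± 16.4 CPM per kilobase), the last enzymes of tyrosine breakdown, formed a lower pair, separate from Ahcy below. With the length of the longest transcript in place of the exon union, Fah (483 to 655) overlapped Tdo2 (585 to 835 CPM per kilobase), from which it was separate before, and Hpd at 1940 passed Mat1a at 1361 CPM per kilobase. Ahcy (91 ± 5.94) and Bhmt (68.4 ± 30.3 CPM per kilobase) were lowest and overlapped. The other 3 groups kept Gnmt, Mat1a and Hpd on top, in varying order, and Ahcy and Bhmt at the bottom. In HFS-fed Xbp1 fl/fl hepatocytes Hpd led with 1663 ± 248 CPM per kilobase, and its libraries were all above those of Gnmt at 1404 ± 66.5 CPM per kilobase.

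The levels of Ahcy and Bhmt, and so their place in the order, are uncertain, because other loci hold near-identical copies of their transcripts. Of the 50-base windows of the Ahcy transcripts, as long as the reads, 68.7% were found identical in another gene of GENCODE M21, and of those of Bhmt 25.3%. The other 7 genes shared none. The main copy of Ahcy is Gm4737, at chr16:46152985-46155077 of GRCm38 on the minus strand and annotated as protein coding, which matched 1295 of the 1299 coding bases of Ahcy. The processed pseudogene Gm9826, at chr1:7177739-7179037 on the plus strand, matched 1288 of them. Coding bases 442 to 491, counted from the A of the start codon, are printed to show how little separates the loci; the capitals mark C459T and G474A (Ahcy base first), which are 2 of the 4 differences from Gm4737:
Ahcy: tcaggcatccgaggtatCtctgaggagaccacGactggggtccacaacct
Gm4737: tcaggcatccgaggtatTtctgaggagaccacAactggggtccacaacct
The deposited counts gave Gm4737 22 to 52 reads per library, and Ahcy 3844 to 5590. How reads that match both were assigned is not given in the sources used here. Summing Ahcy with its 4 copies, and Bhmt with its 2, left every fitted value of both on the same side of the threshold and of 0. The copies held few counts, for Bhmt 55 to 209 (Gm5096) and 1 to 11 (Bhmt-ps1) beside 5236 to 18940. The sum could therefore hardly move a value, and it leaves out any reads that were assigned to no gene. It does not settle the uncertainty of these levels.

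In the tyrosine pathway, Tat (chr8:109990437-109999803, plus strand) had 2712, 1813 and 1768 CPM in chow-fed Xbp1 fl/fl, 1431 and 1933 CPM in chow-fed Xbp1 LKO, 2442, 1888 and 2148 CPM in HFS-fed Xbp1 fl/fl and 2019, 1141 and 647 CPM in HFS-fed Xbp1 LKO libraries. The HFS-fed Xbp1 LKO libraries spread 3.12-fold, the widest spread of any member in any group, with replicate 1 inside the range of the controls and the other two below it. Hpd (chr5:123171807-123182727, minus strand) had 3176, 2779 and 2214 CPM, 3480 and 2434 CPM, 3368, 3118 and 4132 CPM, and 2701, 2466 and 2146 CPM in the same order of groups. Its chow groups overlapped, and on the HFS diet every Xbp1 LKO library lay below every control.

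Hgd (chr16:37580153-37632020, plus strand) had 823, 909 and 868 CPM in chow-fed Xbp1 fl/fl, 954 and 635 CPM in chow-fed Xbp1 LKO, 991, 979 and 1073 CPM in HFS-fed Xbp1 fl/fl and 1018, 930 and 905 CPM in HFS-fed Xbp1 LKO libraries. It was the steadiest of the 5 aromatic amino acid genes in 2 of the 4 groups, with a coefficient of variation of 4.96% in chow-fed and 5.05% in HFS-fed Xbp1 fl/fl hepatocytes, but 28.4% in chow-fed Xbp1 LKO hepatocytes. Fah (chr7:84585159-84606722, minus strand) had 940, 1038 and 765 CPM, 985 and 817 CPM, 962, 999 and 1071 CPM, and 875, 857 and 801 CPM in the same order. Its genotypes did not overlap on the HFS diet, although their means were only 845 and 1011 CPM. Tdo2 (chr3:81957090-81976202, minus strand), the tryptophan enzyme, had 2232, 2007 and 2865 CPM, 1844 and 1443 CPM, 2160, 2340 and 2384 CPM, and 2192, 1613 and 2133 CPM. Both chow-fed Xbp1 LKO libraries were below all 3 chow-fed controls, and on the HFS diet the genotypes overlapped.

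In the methionine cycle, Mat1a (chr14:41105035-41124412, plus strand) had 5376, 5113 and 3668 CPM in chow-fed Xbp1 fl/fl, 5090 and 4835 CPM in chow-fed Xbp1 LKO, 3591, 4710 and 4214 CPM in HFS-fed Xbp1 fl/fl and 4377, 3988 and 4450 CPM in HFS-fed Xbp1 LKO libraries. The genotypes overlapped on both diets. Gnmt (chr17:46725664-46729168, minus strand) had 2732, 2908 and 1706 CPM, 2060 and 1296 CPM, 1606, 1712 and 1763 CPM, and 1330, 1246 and 955 CPM in the same order. Its lowest mean was that of the HFS-fed Xbp1 LKO group, whose libraries lay below the controls of the same diet, while the chow groups overlapped through replicate 3 of the controls.

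Ahcy (chr2:155059310-155074497, minus strand) had 258, 271 and 238 CPM in chow-fed Xbp1 fl/fl, 238 and 168 CPM in chow-fed Xbp1 LKO, 256, 245 and 261 CPM in HFS-fed Xbp1 fl/fl and 205, 167 and 153 CPM in HFS-fed Xbp1 LKO libraries. The controls were tight on both diets, and the HFS-fed Xbp1 LKO libraries were all below them. Bhmt (chr13:93616675-93637961, minus strand) had 595, 303 and 284 CPM, 551 and 475 CPM, 439, 685 and 552 CPM, and 563, 704 and 320 CPM in the same order. Its groups overlapped in every comparison, and its highest chow-fed control had 2.1 times the level of the lowest. Bhmt2, the neighbouring gene for a related methyltransferase, had group means of 191 to 249 CPM.

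**Figure D1:**
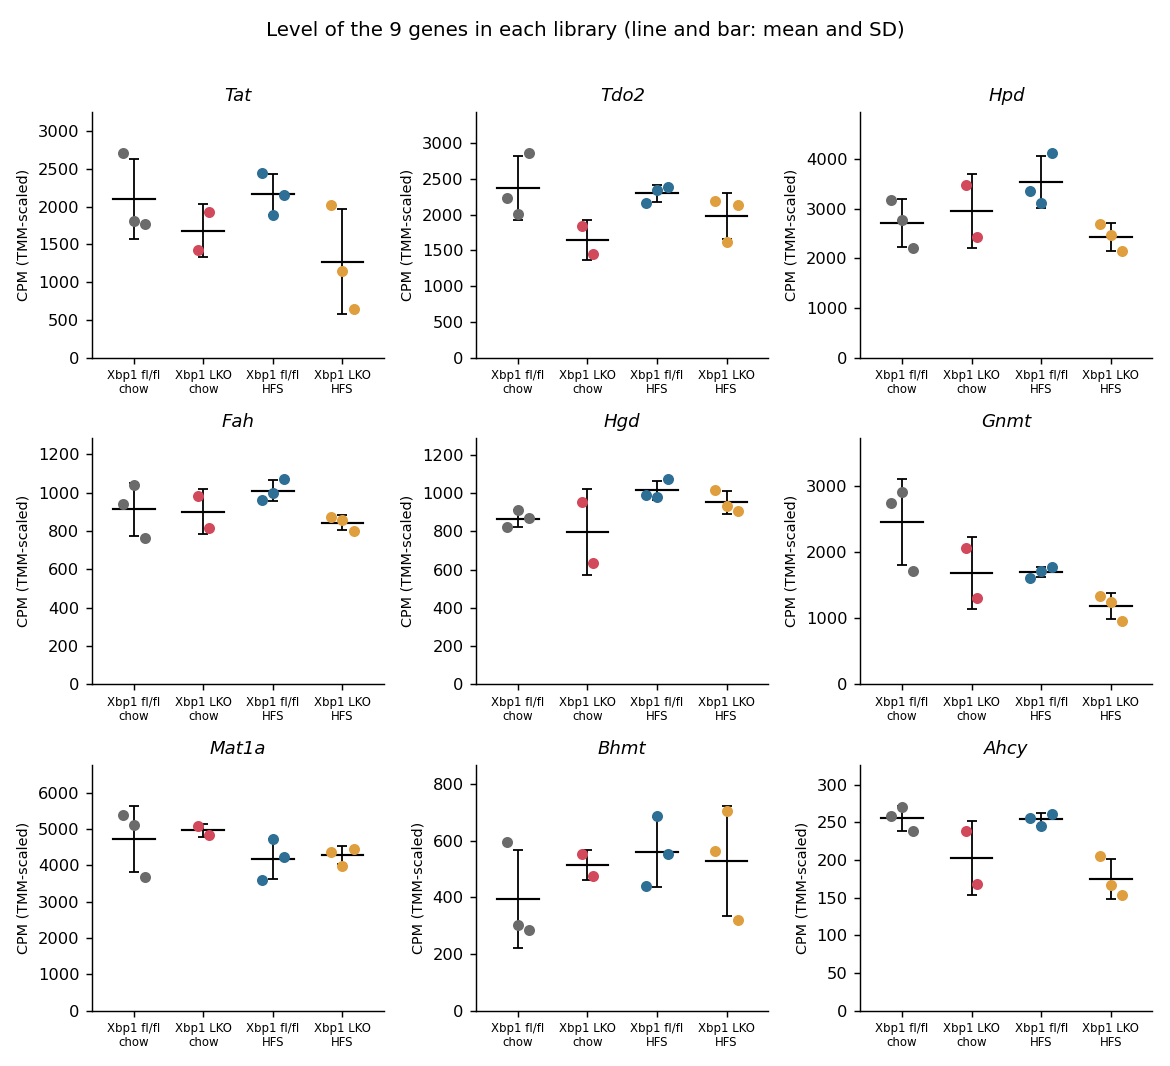
CPM after TMM scaling (vertical axes, from 0) of each of the 9 genes in the 4 groups; each point is a library (3, 2, 3 and 3 per group), and the horizontal line and bar are the mean and SD. Ahcy, Hpd, Gnmt and Fah show no overlap between the genotypes on the HFS diet, and Tat spreads from 647 to 2019 CPM in HFS-fed Xbp1 LKO hepatocytes.

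Some libraries stood apart for many of the genes at once. Among the HFS-fed Xbp1 LKO libraries, replicate 1 had the highest value for 7 of the 9 genes and replicate 3 the lowest for 7. Replicate 1 also had the highest summed hepatocyte markers of its group, 105930 CPM against 75694 and 84390 CPM. Alb alone made up 51478, 29578 and 38973 CPM of these sums. Of the chow-fed Xbp1 LKO libraries, replicate 2 had the lower value for 8 of the 9 genes. It also had the lower summed hepatocyte markers, 57356 against 94957 CPM, with 14021 and 34259 CPM of these from Alb. Replicate 3 of the chow-fed controls had the lowest value for 7 of the 9 genes, yet the highest hepatocyte markers of its group, 190363 CPM. Of that sum 119367 CPM was Alb. The part of these markers in the values was not tested.

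On chow, the question was whether the loss of Xbp1 alone went with another level of these enzymes. No member passed the threshold, while 4.75% of all genes tested did. At an unadjusted p under 0.05 there was 1 member, Tdo2, where 19.3% of all genes were, and Tdo2 was also the 1 member of 9 whose chow groups did not overlap, where 31.3% of all genes did not. Tdo2 stood at 1643 ± 284 CPM (SD, n = 2) in Xbp1 LKO against 2368 ± 445 CPM (SD, n = 3) in Xbp1 fl/fl hepatocytes, a log2 fold change of -0.53 (standard error, SE, 0.20). Its adjusted p was 0.176 in edgeR's test, and 0.065 to 0.699 under the alternatives. Gnmt had a log2 fold change of -0.55 (SE 0.26, adjusted p = 0.282) and Ahcy one of -0.33 (SE 0.17, adjusted p = 0.321). The other 6 lay between -0.32 for Tat and 0.38 for Bhmt. Their 95% intervals still allowed sizeable differences: Tat 0.45 to 1.43 times and Bhmt 0.755 to 2.25 times the control level, but Fah only 0.774 to 1.25 times and Hgd 0.708 to 1.19 times. The median over the 9 genes was -0.12, and over all genes 0.002.

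On the HFS diet, the same comparison gave no member past the threshold against 4.08% of all genes. By DESeq2, which called 7.57% of the genes, Ahcy passed, with an adjusted p of 0.012. At an unadjusted p under 0.05 there were 4 members, Ahcy, Hpd, Gnmt and Tat, where 17.5% of all genes were, and 4 members, Ahcy, Hpd, Gnmt and Fah, did not overlap between the genotypes, where 26.1% of all genes did not. Ahcy had a log2 fold change of -0.54 (SE 0.15), or 0.689 times the control level with a 95% interval from 0.548 to 0.866, and an adjusted p of 0.074 in edgeR's test. Without replicate 1 of the HFS-fed Xbp1 LKO group that p became 0.046, without either chow-fed Xbp1 LKO library 0.037 or 0.039, and over all alternatives it ran from 0.012 to 0.248. Scaling by library totals brought the value to -0.28, while the median of all genes moved from 0.008 to 0.27.

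Hpd stood at 2438 ± 279 CPM in Xbp1 LKO against 3540 ± 528 CPM in Xbp1 fl/fl hepatocytes (SD, n = 3 each), a log2 fold change of -0.54 (SE 0.19, adjusted p = 0.168). Gnmt stood at 1177 ± 197 against 1694 ± 80.2 CPM, a log2 fold change of -0.53 (SE 0.23, adjusted p = 0.265). Tat had the largest difference of the 9, 1269 ± 695 against 2160 ± 277 CPM, and the largest error, with a log2 fold change of -0.77 (SE 0.34, adjusted p = 0.269). Without replicate 1 of the Xbp1 LKO group, the library with 2019 CPM, the value for Tat was -1.27 and its adjusted p 0.040. Fah had a log2 fold change of -0.26 (SE 0.14, adjusted p = 0.396).

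The remaining 4 genes had smaller differences on the HFS diet, and their intervals differ in what they allow. Mat1a, the most abundant by count, was at 1.02 times the control level, with an interval from 0.787 to 1.33. Hgd was at 0.937 times, from 0.744 to 1.18, Tdo2 at 0.863 times, from 0.657 to 1.13, and Bhmt at 0.948 times, from 0.58 to 1.55. The median log2 fold change of the 9 was -0.26, and that of all genes 0.008. When scaled by library totals in place of TMM factors, the median of all genes moved to 0.27 on the HFS diet and 0.33 on chow. Then 4 and 3 of the 9 genes were negative, where 18.2% and 20.3% of all genes were. Below the median of all genes lay 8 and 6 of the 9, as with TMM factors.

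**Figure D2:**
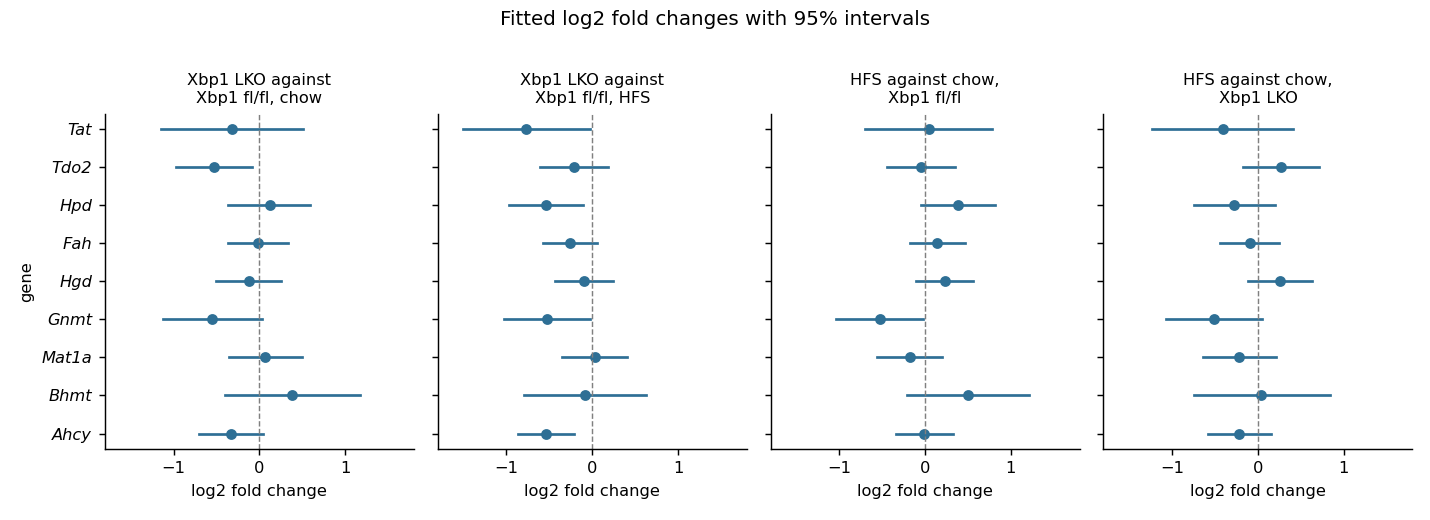
Log2 fold changes (horizontal axes) of the 9 genes in the 4 comparisons, from edgeR's fit over all 11 libraries; points are the estimates and lines the 95% intervals, without adjustment for the number of genes. The interval leaves out 0 for Tdo2 on chow, for Tat, Hpd, Gnmt and Ahcy on the HFS diet, and for Gnmt between the diets in Xbp1 fl/fl hepatocytes.

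For the 4 genes with the smallest p on the HFS diet, the 250 bases before the RefSeq start site are shown (RefSeq, GRCm38.p6), each written 5′ to 3′ on the strand of its gene, to show the part of the searched stretch that precedes the start site. They are chr2:155074498-155074747 (minus) for Ahcy, chr5:123182724-123182973 (minus) for Hpd, chr17:46729166-46729415 (minus) for Gnmt and chr8:109990186-109990435 (plus) for Tat. Capitals mark the letters CCACG or CCAAT or AGGTCA on either strand:
Ahcy: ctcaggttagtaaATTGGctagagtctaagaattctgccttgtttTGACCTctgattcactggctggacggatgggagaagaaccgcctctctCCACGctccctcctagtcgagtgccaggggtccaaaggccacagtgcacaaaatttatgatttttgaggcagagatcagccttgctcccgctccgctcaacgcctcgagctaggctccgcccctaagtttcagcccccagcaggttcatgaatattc
Hpd: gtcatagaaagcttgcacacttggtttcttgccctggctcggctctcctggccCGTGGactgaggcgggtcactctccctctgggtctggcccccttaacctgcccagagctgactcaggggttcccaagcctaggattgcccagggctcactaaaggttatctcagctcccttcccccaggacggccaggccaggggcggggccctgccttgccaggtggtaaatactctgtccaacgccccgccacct
Gnmt: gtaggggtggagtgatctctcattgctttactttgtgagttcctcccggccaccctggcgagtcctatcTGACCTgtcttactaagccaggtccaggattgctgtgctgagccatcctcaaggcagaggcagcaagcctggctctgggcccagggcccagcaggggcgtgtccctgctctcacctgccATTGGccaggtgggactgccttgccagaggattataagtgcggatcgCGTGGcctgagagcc
Tat: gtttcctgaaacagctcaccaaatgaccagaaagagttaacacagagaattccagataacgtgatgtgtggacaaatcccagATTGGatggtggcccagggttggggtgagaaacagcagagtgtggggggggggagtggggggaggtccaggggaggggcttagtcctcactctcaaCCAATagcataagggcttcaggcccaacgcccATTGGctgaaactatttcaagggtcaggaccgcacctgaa

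The motif search covered 300 bases per promoter, of which the last 50 follow the start site, in 8 of the 9 genes (a window for Mat1a was not used here) and in 32851 windows of all genes. CCACG, part of the sequences that XBP1 and ATF6 are known to bind, was in 5 of the 8 (Tat, Hpd, Fah, Gnmt and Ahcy) and in 32.8% of all windows; in Tat it lies after the start site, outside the printed bases. The longer TGACGTGG was in none of the 8 and in 0.676% of all, and TGATGCAA, a form of the site of ATF4 with C/EBP, was in none and in 0.895%. CCAAT was in 6 of the 8 and in 37.4% of all, and AGGTCA, the core site of many nuclear receptors, in 5 of the 8 and 16.3%. TGTTCT, the core site of the glucocorticoid receptor, was in none of the 8 and in 19% of all windows, and TATAAA in Tdo2 and Hgd and 13.6%. Short letters such as CCACG recur by composition alone, and a match describes the window and not a bound site.

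In Xbp1 fl/fl mice, the HFS diet was compared with chow to see what the diet did with Xbp1 intact. No member passed, against 0.428% of all genes. At an unadjusted p under 0.05 there was 1 member, Gnmt, where 8.95% of all genes were: Gnmt stood at 1694 ± 80.2 CPM on the HFS diet against 2449 ± 649 CPM on chow, a log2 fold change of -0.53 (SE 0.23, adjusted p = 0.529). Hgd was the 1 member whose libraries did not overlap between the diets, with 1014 ± 51.2 CPM on the HFS diet above 867 ± 43 CPM on chow, where 13.7% of all genes did not overlap; its log2 fold change was 0.23 (SE 0.15, adjusted p = 0.753). Ahcy was at 0.995 times its chow level, with a 95% interval from 0.792 to 1.25, and Tat at 1.03 times, from 0.617 to 1.72.

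In Xbp1 LKO mice, no member passed for the diet, against 0.0601% of all genes, and none had an unadjusted p under 0.05, where 12.7% of all genes had. Mat1a was the 1 member of 9 without overlap, at 4272 ± 248 CPM on the HFS diet (SD, n = 3) below 4963 ± 180 CPM on chow (SD, n = 2), where 31.1% of all genes did not overlap. Its log2 fold change was -0.22 (SE 0.19, adjusted p = 0.679). Gnmt had a log2 fold change of -0.51 (SE 0.25, adjusted p = 0.435).

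Whether the genotype difference itself depended on the diet was tested as an interaction. It called 0 members, and 0% of all genes passed, although 6.13% had an unadjusted p under 0.05. DESeq2 called 29 genes and no member. Hpd was the 1 member at an unadjusted p under 0.05: its genotype difference was 0.12 on chow and -0.54 on the HFS diet, an interaction of -0.66 (SE 0.29, adjusted p = 0.793). For Ahcy the interaction was -0.21 (SE 0.23) and for Gnmt 0.02 (SE 0.34), with 95% intervals from -0.70 to 0.29 and from -0.73 to 0.77.

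Other enzymes of the same pathways were taken from lists chosen by pathway. Of 6 other genes of phenylalanine and tyrosine metabolism, 1 was lower and none higher in Xbp1 LKO hepatocytes on each diet. Of all genes, 4.75% were called on chow and 4.08% on the HFS diet. The 1 gene was Qdpr, which recycles the tetrahydrobiopterin that phenylalanine hydroxylase uses. Qdpr had 317 to 369 CPM in chow-fed Xbp1 fl/fl, 197 to 263 CPM in chow-fed Xbp1 LKO, 264 to 295 CPM in HFS-fed Xbp1 fl/fl and 192 to 205 CPM in HFS-fed Xbp1 LKO libraries. On the log2 scale it differed by -0.59 (adjusted p = 0.042) on chow and -0.51 (adjusted p = 0.048) on the HFS diet. Both calls were close to the threshold and were lost in 12 and 10 of 18 alternatives, with adjusted p up to 0.363 and 0.174, the highest values being those without replicate 2 of the chow-fed and of the HFS-fed Xbp1 LKO group. Gstz1, which acts between Hgd and Fah, did not pass, with log2 fold changes of -0.28 and -0.23, nor did Pcbd1, of the same recycling as Qdpr (-0.35 on chow, adjusted p = 0.176), or Gchfr (-0.24 on the HFS diet, adjusted p = 0.399). The list's median log2 fold changes were -0.28 on chow and -0.22 on the HFS diet, and 0.04 on both when scaled by library totals. The medians of all genes under library totals were 0.33 and 0.27.

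Of 10 other genes of tryptophan and kynurenine metabolism, 1 was lower on chow and none passed on the HFS diet, against 4.75% and 4.08% of all genes. On the HFS diet all 10 had a negative log2 fold change and the median was -0.49, with 48.6% of all genes negative. Scaled by library totals, 8 of the 10 were negative and the median was -0.23, with 18.2% of all genes negative. The 1 gene was Haao, whose enzyme makes the precursor of quinolinate, with 600 to 673 CPM in the chow-fed controls against 467 and 335 CPM, a log2 fold change of -0.67 (adjusted p = 0.032). It too was fragile: 8 of 18 alternatives lost the call, with an adjusted p of up to 0.281 without replicate 2 of the chow-fed Xbp1 LKO group. On the HFS diet its log2 fold change was -0.53 (adjusted p = 0.052). Qprt, which uses quinolinate for NAD synthesis, had log2 fold changes of -0.57 and -0.54 (adjusted p = 0.106 and 0.092). Those of Afmid, the formamidase that follows Tdo2, were -0.60 and -0.97 (adjusted p = 0.315 and 0.074). Those of Kyat3, a kynurenine aminotransferase, were -2.13 and -0.86 (adjusted p = 0.063 and 0.410). By DESeq2, Haao, Qprt and Kyat3 passed on chow (adjusted p = 0.00018, 0.031 and 0.027) and Afmid did not. On the HFS diet DESeq2 passed Haao, Qprt and Afmid (adjusted p = 0.0014, 0.021 and 0.010) and not Kyat3. It called 1130 of 13303 genes on chow and 7.57% on the HFS diet.

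Of 20 other genes of the methionine cycle, transsulfuration and choline oxidation, none passed on chow, against 4.75% of all genes. On the HFS diet 1 was higher in Xbp1 LKO hepatocytes, against 4.08% of all genes called. It was Csad, whose enzyme makes hypotaurine on the way to taurine. Csad had 314, 426 and 588 CPM in chow-fed Xbp1 fl/fl, 425 and 503 CPM in chow-fed Xbp1 LKO, 154, 75.1 and 84.6 CPM in HFS-fed Xbp1 fl/fl and 256, 337 and 427 CPM in HFS-fed Xbp1 LKO libraries. The HFS-fed controls alone were low. The genotype difference on the HFS diet was 1.70 on the log2 scale (SE 0.31, adjusted p = 0.011), and the diet difference in Xbp1 fl/fl mice was -2.08 (SE 0.31, adjusted p = 0.018). Without replicate 3 of the HFS-fed controls the adjusted p values were 0.058 and 0.130. The interaction for Csad was 1.63 (SE 0.45, adjusted p = 0.659), so that a dependence on diet was not shown at this threshold. Cth, which makes cysteine from cystathionine, was at 308 to 366 CPM in HFS-fed and 558 to 719 CPM in chow-fed Xbp1 fl/fl libraries. Its log2 fold change was -0.95 (adjusted p = 0.063, and 0.00011 by DESeq2). Cbs, the enzyme before it, had genotype differences of -0.33 on chow and -0.28 on the HFS diet. Its adjusted p was 0.193 and 0.249, and 0.038 and 0.062 by DESeq2. Mat2a, the methionine adenosyltransferase known mainly from tissues other than liver, had a positive log2 fold change of 0.47 on the HFS diet (SE 0.15, adjusted p = 0.110, and 0.054 by DESeq2), with no overlap between the genotypes, and did not pass. Ahcyl2, a relative of Ahcy, had a diet difference of 0.31 in Xbp1 fl/fl mice (adjusted p = 0.436). Mtrr, of the folate-dependent route back to methionine, had a log2 fold change of 0.67 on chow (adjusted p = 0.081, and 0.044 by DESeq2).

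**Figure D3:**
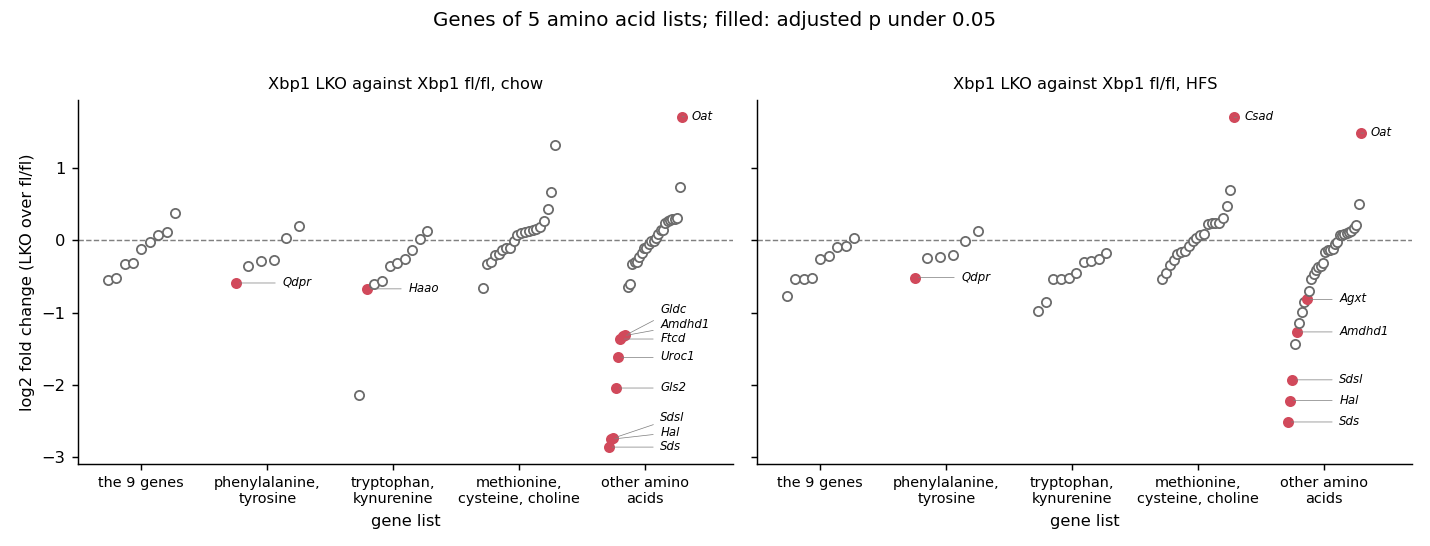
Log2 fold changes of Xbp1 LKO over Xbp1 fl/fl (vertical axis) on chow (left) and on the HFS diet (right) for the 9 genes and 4 lists of other amino acid genes; each point is a gene, ordered within its list, and the filled, named points have an adjusted p under 0.05. The 9 genes lie between -0.77 and 0.38, while genes of other pathways reach -2.86.

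The list of other amino acid catabolism, 32 genes for histidine, serine, glycine, glutamine, ornithine, proline, lysine and branched-chain amino acids, held larger differences. On chow 8 were lower and 1 higher in Xbp1 LKO hepatocytes, and on the HFS diet 5 were lower and 1 higher, against the 4.75% and 4.08% of all genes called. Hal, which starts histidine breakdown, had 654, 605 and 380 CPM in chow-fed controls against 123 and 39.2 CPM, and 279, 564 and 473 CPM in HFS-fed controls against 124, 72.3 and 87.9 CPM. Its log2 fold changes were -2.75 (SE 0.49, adjusted p = 0.011) and -2.21 (SE 0.41, adjusted p = 0.013). A further 3 genes of the same route were lower on chow, Uroc1 (-1.62), Amdhd1 (-1.32) and Ftcd (-1.36), and of these Amdhd1 (-1.27) was also lower on the HFS diet. Sds and Sdsl, the serine dehydratase and its relative, had log2 fold changes of -2.86 and -2.73 on chow and -2.51 and -1.93 on the HFS diet, although Sdsl was rare at 1.34 to 15.3 CPM. Gls2, the liver glutaminase (-2.04), and Gldc of the glycine cleavage system (-1.31) were lower on chow, and Agxt, the peroxisomal alanine-glyoxylate aminotransferase (-0.82), was lower on the HFS diet. Without replicate 3 of the HFS-fed Xbp1 LKO group 1 of the 5, Amdhd1, passed. Without replicate 2 of the chow-fed Xbp1 LKO group 1 library is left there, so that no calls of the 8 are given. In that fit the log2 fold change of Hal was -2.15. Those of the 8 then ran from -2.50 for Sdsl to -0.88 for Ftcd.

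Oat moved the other way. This enzyme, which makes glutamate semialdehyde from ornithine, had 968 to 1333 CPM in chow-fed and 1080 to 1497 CPM in HFS-fed controls, and 3696 to 3848 CPM in chow-fed and 2892 to 4584 CPM in HFS-fed Xbp1 LKO hepatocytes. The log2 fold changes were 1.71 (SE 0.23, adjusted p = 0.0042) and 1.48 (SE 0.21, adjusted p = 0.0040), and both passed in all 18 alternatives.

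**Figure D4:**
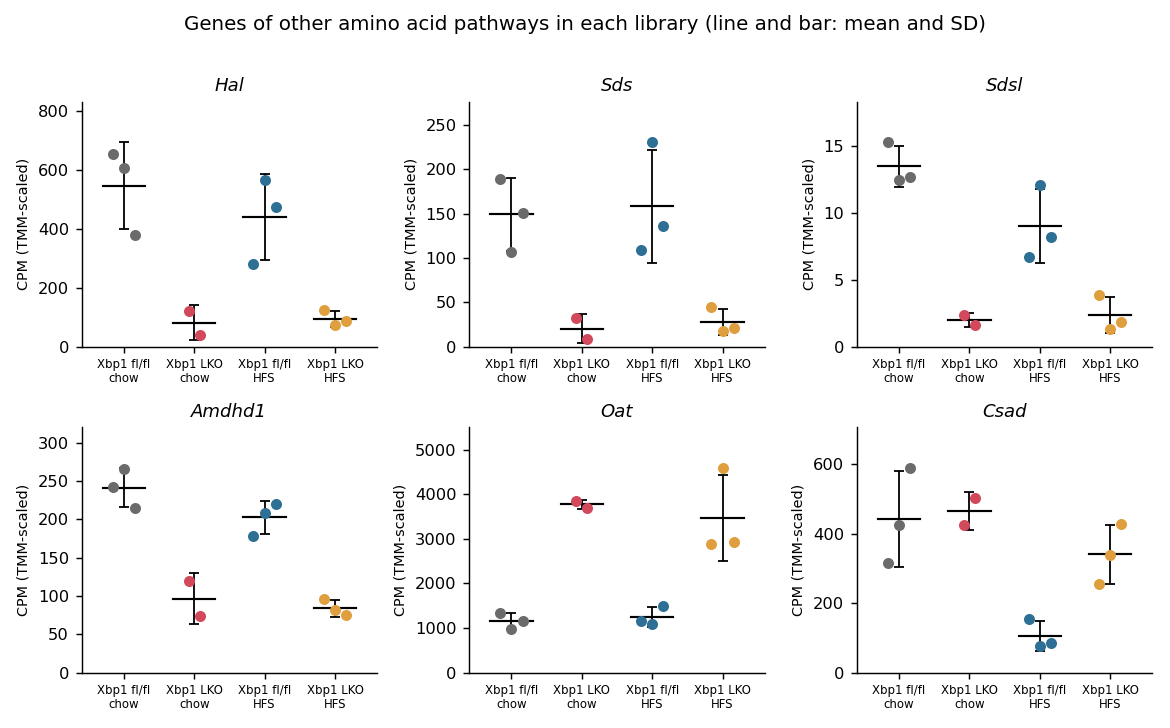
CPM after TMM scaling (vertical axes, from 0) of Hal, Sds, Sdsl, Amdhd1, Oat and Csad in the 4 groups; points are libraries, and lines and bars the mean and SD. The first 4 are lower and Oat is higher in Xbp1 LKO hepatocytes on both diets, while Csad is at 75.1 to 154 CPM in the HFS-fed controls and at 256 CPM or more elsewhere.

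Because Tat and Tdo2 respond to glucocorticoids, 10 genes of the glucocorticoid receptor and its targets were read in the same libraries. On chow 2 were lower and none higher in Xbp1 LKO hepatocytes, against 4.75% of all genes called, and none passed on the HFS diet, against 4.08%. They were Hsd11b1, which regenerates active glucocorticoid in the liver, at 647 to 927 CPM in the controls against 189 and 374 CPM (log2 fold change -1.54, SE 0.28, adjusted p = 0.012), and Tsc22d3, a glucocorticoid-induced gene, with a log2 fold change of -1.41 (SE 0.27, adjusted p = 0.014). On the HFS diet they had log2 fold changes of -0.85 and -0.71 (adjusted p = 0.074 and 0.118). Both calls were lost without replicate 2 of the chow-fed Xbp1 LKO group. Per1, another target, had log2 fold changes of -0.47 and -0.33 and did not pass. By DESeq2, which called 7.57% of the genes on the HFS diet, Hsd11b1 and Tsc22d3 passed there (adjusted p = 0.0077 and 0.041). Per1 did not. The list did not move in 1 direction on chow: 6 of the 10 genes were negative, and the values ran from -1.54 to 0.90. On the HFS diet 9 of the 10 were negative, with values from -0.85 to 0.48. Of all genes, 49.7% and 48.6% were negative. None of 10 hepatocyte transcription factors passed on either diet, against 4.75% and 4.08% of all genes. Of the 10, 5 were negative on chow (median 0.01) and 6 on the HFS diet (median -0.05). On chow, Foxa1, Foxa2 and Cebpb had log2 fold changes of 0.45, 0.45 and 0.63 (adjusted p = 0.161, 0.209 and 0.198). On the HFS diet those of Foxa2 and Cebpb were -0.30 and -0.51 (adjusted p = 0.402 and 0.283), and their interactions were -0.75 and -1.14 (adjusted p = 0.712 and 0.682). The part of these genes in the levels of the 9 members was not tested.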

How the data were processed

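The authors deposited 1 whole-number count per Ensembl gene and library, not normalized. The study's methods name kallisto, tximport and DESeq2, and the submitters' processing notes name cutadapt 1.13, STAR, HTSeq 0.6.1p1, DESeq2 and mm10; which of them made the counts, and so how reads with several matches were treated, was not settled. Groups came from the sample titles. Of 54232 identifiers, 54165 were found in GENCODE M21, which gave symbols, positions and exon lengths.

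From these counts, edgeR 4.0.16 (R 4.3.3) computed TMM factors and CPM, kept 13303 genes (filterByExpr, minimum count 10) and fitted 4 groups to all 11 libraries. Contrasts gave both genotype effects, both diet effects and their interaction, with Benjamini-Hochberg adjustment over all genes at 0.05. Fold changes are on the log2 scale. Intervals are 95% intervals from the standard error and the moderated degrees of freedom. DESeq2 1.42.0 was an alternative; others were a fit of the compared groups alone, RLE factors, unscaled library totals, 2 other filters, a replicate block and each library left out. Between replicates, chi-square per degree of freedom was 25.4 to 91.5, so none was a duplicate. The paper counts mice on chow and pools of mice on the HFS diet as its n. For the RNA-Seq it gives an n of 3 in each group, whereas the deposited counts held 2 chow-fed Xbp1 LKO libraries. The paper does not state which isolations shared a day, so p-values measure the spread between these libraries. The code was tested on simulated data.

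The member genes and the lists were chosen with earlier results of these data known. All 9 members are described. From each other list, the 3 genes with the smallest unadjusted p in each genotype comparison, and in a diet comparison where any passed, are named, beside Xbp1, Alb, Bhmt2 and the further genes that passed. A few genes fixed by this rule were left unreported. Genes most like a member were to be named only for members that passed, so none are. Promoter sequences came from RefSeq.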

Additional observations from a re-analysis of the deposited data

How the results depend on the processing

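With groups of 2 or 3 libraries, differences below about the sizes in the printed intervals could not be shown, and p-values of single genes moved with each library. Of 811 values of the members under alternatives, 759 kept their direction and their side of the threshold, 8 passed that had not, and 44 changed direction, none of these past the threshold. Members called on the HFS diet between genotypes went from 0 to 1 by DESeq2, 2 with no filter on low counts and 1 with only the groups compared (Ahcy, joined by Tat at 2), and to 0 to 2 with a library left out. In the other 4 comparisons no alternative called a member. Over all genes, DESeq2 called 1130 (genotype, chow), 1007 (genotype, HFS), 181 (diet, Xbp1 fl/fl), 213 (diet, Xbp1 LKO) and 29 (interaction), and no filter 1507, 1438, 499, 722 and 269 in the same order. Library totals called 3000 and 1483 for the genotype on chow and HFS, with 2685 higher and 315 lower on chow, and 1288 and 195 on the HFS diet, against 230 and 402, and 256 and 287, with TMM factors. Only the groups compared gave 233 (genotype, chow) and 0 (diet, Xbp1 LKO). With a library left out the counts were 69 to 762 and 184 to 662 for the genotype on chow and HFS, and 6 to 59 and 0 to 36 for the diet in Xbp1 fl/fl and Xbp1 LKO. The cause of these moves was not tested, beyond the fewer libraries.

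Under library totals the log2 fold change turned for Tat (0.02), Fah (0.30), Hgd (0.19) and Gstz1 (0.04) on chow, for Tdo2 (0.04), Fah (0.0001), Hgd (0.16), Bhmt (0.18), Gstz1 (0.03) and Gchfr (0.01) on the HFS diet, for Ahcy (0.01) and Bhmt (-0.0042) between diets in Xbp1 fl/fl and Xbp1 LKO, and for Hgd (-0.03) and Gnmt (-0.04) in the interaction; with no filter Fah on chow was 0.0032. Leaving out a library gave ranges across 0 on chow for Hpd (-0.16 to 0.35), Fah (-0.16 to 0.10), Hgd (-0.45 to 0.14) and Mat1a (-0.08 to 0.18), and on the HFS diet for Mat1a (-0.06 to 0.13) and Bhmt (-0.34 to 0.18). Between diets the ranges were -0.07 to 0.27 for Tat, -0.15 to 0.11 for Tdo2 and -0.06 to 0.04 for Ahcy in Xbp1 fl/fl, and -0.21 to 0.04 for Fah, -0.22 to 0.31 for Bhmt and -0.44 to 0.06 for Ahcy in Xbp1 LKO. For the interaction they were -0.23 to 0.35 for Hgd, -0.27 to 0.39 for Gnmt, -0.14 to 0.11 for Mat1a and -0.44 to 0.06 for Ahcy.

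Same-numbered libraries did not deviate together (correlations of -0.2 to 0.23), so the numbers were not taken to pair them. With the replicate block, 19 genes were called for the diet in Xbp1 LKO mice, against 8 without it, and no member in any comparison. For 1 chow-fed Xbp1 LKO library the title and the file give different numbers, 2 and 3, and the title's was used; with the other, chosen after seeing the data, the correlations in its comparisons were -0.199 to 0.249 and the block called 53 genes for the diet in Xbp1 LKO mice and no member. Summing copies of Ahcy and Bhmt was chosen after seeing the data, as were the alternatives for the other lists, where 82 of 882 values lost and 47 gained a call. Lengths of the longest transcript in place of the exon union raised the levels per kilobase of Hpd to 1940, Fah to 577, Hgd to 509, Bhmt to 99.4 and Ahcy to 100.4 in chow-fed Xbp1 fl/fl hepatocytes.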
